A study of Homo sapiens with 26 samples.

Results

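The lysosome is the acidic compartment in which cells break down proteins, lipids and sugars, and autophagy is the route that wraps cytoplasm in a membrane and delivers it there. The V-ATPase, a rotary proton pump with a cytosolic V1 sector that hydrolyses ATP and a membrane V0 sector that carries protons, keeps the lumen acidic for the cathepsins, its proteases. The autophagosome forms under the ULK and Beclin 1 complexes, and a pair of ubiquitin-like conjugation steps couples proteins of the ATG8 family to its membrane. Many of these genes carry the CLEAR element in their promoters, a site read by the related transcription factors TFEB, TFE3 and MITF, the last of which is also the lineage factor of melanocytes.

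The gene rows described here were chosen by name: V-ATPase subunits of both sectors, cathepsins, Lamp1 and Lamp2, the chloride carriers Clcn6 and Clcn7, the channel gene Mcoln1, Tfeb, Tfe3, and the autophagy genes of the Atg, Ulk, Wipi, Gabarap and Map1lc3 families with Becn1 and Sqstm1. The names matched 77 of the 55353 gene rows of the input RNA files. The study compared cells of the human melanoma line SK-MEL-28 kept in salubrinal for 72 h with untreated cells of the same line; salubrinal blocks removal of the phosphate from eIF2α and so switches on the integrated stress response. There was 1 input RNA library per treatment, and 24 further files came from sucrose gradient fractions (40S, 60S, 80S and polysome, 3 replicates per fraction and treatment), in which the row ATG10 was followed. Cycloheximide had been given to the cells before lysis, and nothing in the labels says whether replicates were separate cultures. A further label field numbers the cell line differently in each of the 26 samples, and the titles, which all name SK-MEL-28, were followed.

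The input libraries held 10245548 counts on gene rows with salubrinal and 12068784 without. A single row, CT010467.1, took 1308224 of the former and 6839261 of the latter. Their rows carry mouse-style symbols, given here as printed, although the cells are human and the submitters' notes name the human build hg19. The gene set behind these rows was therefore not settled, so low counts on a row do not show that the gene had little RNA. Of 8 melanocytic markers 6 had at least 50 counts over both libraries, while Mlana was at 0 in both and Tyrp1 had 0 counts with salubrinal and 5 without. Summed counts of keratinocyte, fibroblast, blood and endothelial markers ran from 0 to 23 per library.

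Among the 77 rows, 51 had at least 50 counts over both libraries and are called measured. Of the other 26, 5 had no count in either library, 14 had 1 to 10 counts in all and 7 had more. The rows of several well-known genes were among these: Map1lc3b, whose product LC3B is the usual marker of autophagosomes, had 0 counts with salubrinal and 2 without, Atp6v0c, the proton-carrying ring subunit, had 0 and 2, the cathepsin row Ctsl had 0 and 1, and Tfeb had 2 and 4. Ctsj, by contrast, was measured with 72 and 24 counts, although it is named for a cathepsin of the rodent placenta. Such a row name belongs to a mouse gene set, and which transcript of these human cells gave its counts was not tested. Its log2 ratio of 0.84 (0.20 to 1.61) is counted below among the members at least 1.5-fold higher. With 1 library per treatment no test was possible, so each log2 ratio of salubrinal over control is given with an exact binomial 95% interval that covers counting error only.

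As a group the measured rows did not stand to one side. Their median log2 ratio was 0.05, against 0.02 for all 10614 measured rows. None was at least 2-fold higher, where 2.75% of all rows were, and 4 were at least 2-fold lower, where 3.80% of all rows were. These counts turned on rows at the limit. Ctsb at 0.997 and Gabarapl2 at 0.984 fell just short, while Ctsd at -1.007 and Atg4d at -1.001 just passed. With a prior count of 0.5, 2 were higher and 4 lower by that limit, and with a prior count of 5, 0 and 3. At a 1.5-fold limit, 8 of 51 were higher and 9 of 51 lower, against 11.0% and 12.1% of all rows. The counting interval lay above 0 for 18 and below 0 for 14, against 25.1% and 23.0%. By sign, 30 were above 0 and 21 below; scaled by total gene-row counts instead, which moves the median of all rows by 0.93, 45 of 51 were above 0, and all 51 kept their side of the all-row median. Directions here are therefore relative to the other rows. Within the group the roles differed in their values: rows of autophagosome conjugation lay above 0, rows of lysosomal ion carriers below it, and the V1 sector near it. The plot of members by role shows each ratio with its interval.

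**Figure D1:**
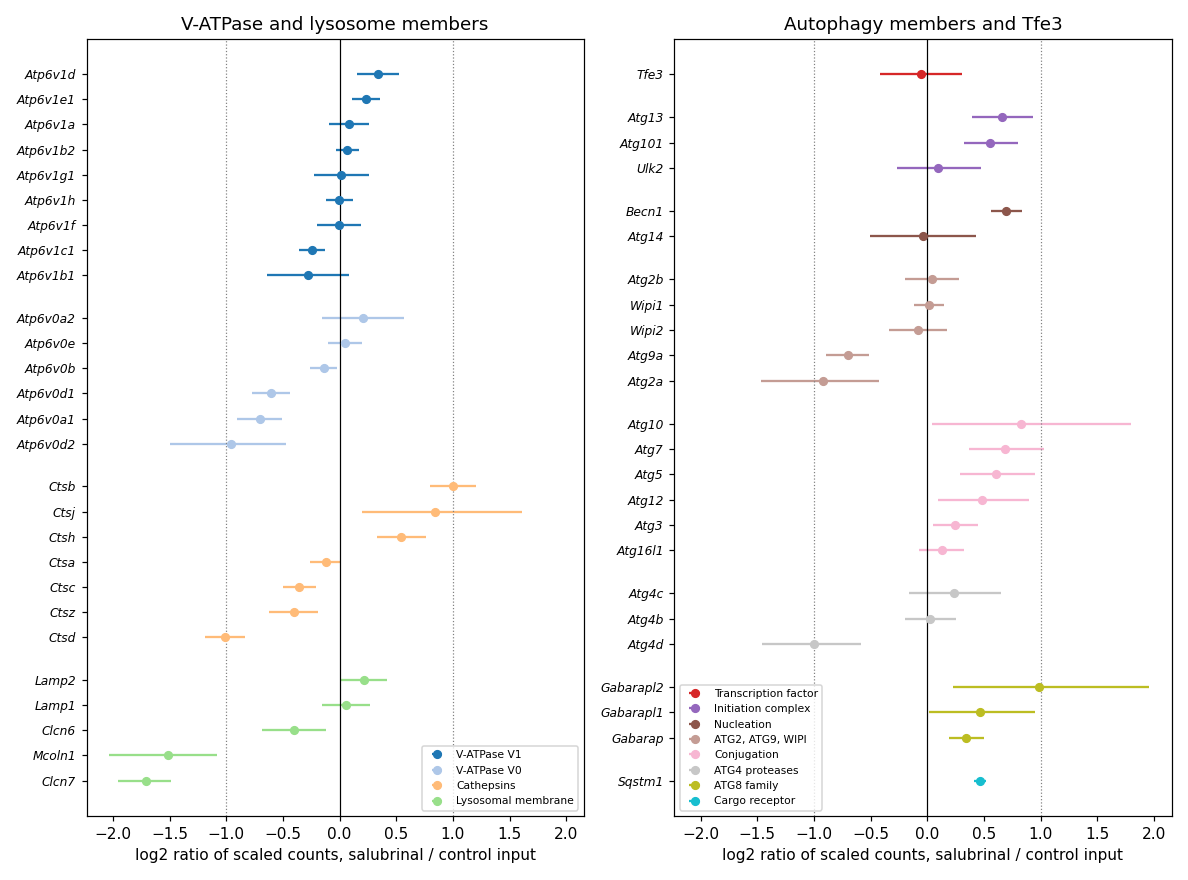
Log2 ratio of scaled counts in salubrinal over control input RNA (x axis) for the 51 measured rows, grouped by role; points are the ratios of 1 library per treatment, bars the 95% counting intervals, and dotted lines a 2-fold difference. The 6 conjugation rows lie above 0, from 0.13 to 0.82, and Clcn7 and Mcoln1 lie below -1.

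Most measured subunits of the V1 sector stood at nearly the same level in both libraries. Atp6v1b2, the catalytic-hexamer B subunit, had a scaled level of 145 with salubrinal and 138 without (CPM, counts set against TMM-scaled library size), which is a log2 ratio of 0.07 (interval -0.03 to 0.17). The row of its partner subunit Atp6v1a had 52.5 and 49.6 CPM, and the regulatory subunit Atp6v1h had 114 and 114 CPM. The highest V1 rows were Atp6v1d at 0.34 (0.15 to 0.53) and Atp6v1e1 at 0.23 (0.11 to 0.35), both parts of the sector's stalks. The lowest were Atp6v1c1 at -0.24 (-0.36 to -0.13) and Atp6v1b1 at -0.28 (-0.64 to 0.08). The 9 measured V1 rows had a median of 0.01, and 0 of them were 1.5-fold apart in either direction. That limit was passed by 11.0% of all measured rows on the higher side and by 12.1% on the lower. Whether 0 of 9 differs from those shares was not tested.

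The V0 sector was lower by its median, -0.37 over 6 measured rows. Of these, 3 were at least 1.5-fold lower, against 12.1% of all measured rows. Atp6v0d1 and Atp6v0a1 turned positive (0.33 and 0.23) under total-count scaling. Atp6v0d1, which links the sectors, had 42.8 CPM in the salubrinal library and 65.2 in the control, a log2 ratio of -0.61 (-0.78 to -0.44). Atp6v0a1, a membrane subunit that helps place the pump in the cell, had 29.2 and 47.7 CPM, a log2 ratio of -0.71 (-0.91 to -0.51). Atp6v0d2, the tissue-restricted form of the d subunit, was lowest at -0.96 (-1.50 to -0.47) from 61 and 74 counts. Atp6v0a2, the other a subunit measured among the members, did not share this, at 0.20 (-0.15 to 0.57). Atp6v0e stood at 0.05 (-0.10 to 0.20).

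Of 9 measured genes for partners of the pump, a list chosen by function, 6 were above 0 and 3 below, with a median of 0.01. Vma21, an assembly factor, stood at 0.76 (0.20 to 1.41) and the accessory subunit gene Atp6ap2 at 0.35. Atp6ap1, the other accessory subunit, was at -0.69 (-0.96 to -0.44), and Tcirg1, which encodes a further a subunit, at -0.71 (-1.20 to -0.25).

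The cathepsins lay on both sides. Ctsb, a cysteine protease, had 61.1 CPM in the salubrinal library and 30.5 in the control, a log2 ratio of 1.00 (0.80 to 1.21). Ctsd, the main aspartic protease of the lysosome, had 34.6 and 69.7 CPM, a log2 ratio of -1.01 (-1.19 to -0.84), so these rows differed by close to 2-fold in opposite directions. Ctsh, an aminopeptidase, was higher at 0.54 (0.33 to 0.76). Ctsc and Ctsz, also cysteine proteases, were lower at -0.36 and -0.41, and Ctsa, which protects other lysosomal enzymes, was at -0.12 (-0.26 to 0.01).

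The lysosomal membrane rows held the 2 lowest ratios of all members. Clcn7, a chloride-proton exchanger of the lysosomal membrane, had 222 counts (15.6 CPM) in the salubrinal library and 449 (51.6 CPM) in the control, 3.27-fold lower at a log2 ratio of -1.71 (-1.96 to -1.49). Mcoln1, which encodes the calcium channel TRPML1, had 60 and 108 counts, 2.86-fold lower at -1.51 (-2.03 to -1.08). Only 0.48% of measured rows had a ratio as low as that of Clcn7, and 0.707% as low as that of Mcoln1. Clcn6, a relative of Clcn7, was lower at -0.40 (-0.68 to -0.12). Lamp1 and Lamp2, the abundant glycoproteins that line the membrane, stood at 0.05 (-0.16 to 0.27) and 0.21 (0.01 to 0.42).

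Other lysosomal genes, again chosen by function, also had more rows below 0 than above it among the hydrolases. Of 33 measured hydrolases and activators 24 were below 0 and 9 above, with a median of -0.24, where 52.0% of all measured rows were above 0. Past the 1.5-fold limit, 8 lay on the lower side and 0 on the higher, against 12.1% and 11.0% of all measured rows. The heparan sulphate enzymes Sgsh and Naglu were lowest at -1.78 (-2.66 to -1.15) and -1.31 (-1.79 to -0.90), and Aga and Ids highest at 0.49 and 0.44. Among 16 other membrane and transport genes the median was 0.23. There the cystine exporter row Ctns stood at 0.65 (-0.13 to 1.60) and the protease row Sppl2a at 0.60, while the transporter rows Abcb9 and Abca2 stood at -0.97 and -1.11.

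Of the 11 CLEAR carriers below, the promoters of the 3 lowest are printed with those of the 2 highest, because a CLEAR match is what these unlike rows share. Promoter sequences of the human genes, 250 bases before to 50 after the annotated start, came from RefSeq (build GRCh38.p14), and 57 of the 77 rows were matched by symbol or synonym. Capitals mark GTCACGTG, the core of the CLEAR element, on either strand, and the E-box CACGTG that lies inside it or stands alone. CLCN7 is at chr16:1474979-1475278 (minus strand), MCOLN1 at chr19:7522374-7522673 (plus), CTSD at chr11:1763878-1764177 (minus), LAMP1 at chr13:113296989-113297288 (plus) and ATG3 at chr3:112561913-112562212 (minus).
CLCN7: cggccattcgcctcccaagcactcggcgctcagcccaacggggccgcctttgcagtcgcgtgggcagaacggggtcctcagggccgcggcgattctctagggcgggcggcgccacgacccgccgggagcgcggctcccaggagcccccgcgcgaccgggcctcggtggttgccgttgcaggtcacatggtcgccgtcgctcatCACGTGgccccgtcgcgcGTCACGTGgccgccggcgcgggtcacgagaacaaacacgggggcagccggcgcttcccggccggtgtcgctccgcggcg
MCOLN1: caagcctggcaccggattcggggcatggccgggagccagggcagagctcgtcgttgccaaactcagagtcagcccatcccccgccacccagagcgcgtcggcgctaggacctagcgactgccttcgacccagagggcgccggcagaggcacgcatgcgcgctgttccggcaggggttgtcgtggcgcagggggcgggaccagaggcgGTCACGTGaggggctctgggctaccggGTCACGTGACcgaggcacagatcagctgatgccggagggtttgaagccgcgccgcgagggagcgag
CTSD: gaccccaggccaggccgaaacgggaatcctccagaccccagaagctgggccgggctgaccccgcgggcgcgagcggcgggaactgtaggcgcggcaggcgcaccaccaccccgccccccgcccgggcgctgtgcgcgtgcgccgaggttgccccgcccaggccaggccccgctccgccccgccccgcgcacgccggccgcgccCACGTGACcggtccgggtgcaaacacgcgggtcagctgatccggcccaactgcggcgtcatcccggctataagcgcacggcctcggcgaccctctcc
LAMP1: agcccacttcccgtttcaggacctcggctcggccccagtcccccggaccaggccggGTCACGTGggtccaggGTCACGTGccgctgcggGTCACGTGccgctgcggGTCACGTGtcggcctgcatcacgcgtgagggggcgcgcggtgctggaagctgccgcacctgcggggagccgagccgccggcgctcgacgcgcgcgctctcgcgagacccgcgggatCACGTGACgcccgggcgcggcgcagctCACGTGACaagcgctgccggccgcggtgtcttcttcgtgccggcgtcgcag
ATG3: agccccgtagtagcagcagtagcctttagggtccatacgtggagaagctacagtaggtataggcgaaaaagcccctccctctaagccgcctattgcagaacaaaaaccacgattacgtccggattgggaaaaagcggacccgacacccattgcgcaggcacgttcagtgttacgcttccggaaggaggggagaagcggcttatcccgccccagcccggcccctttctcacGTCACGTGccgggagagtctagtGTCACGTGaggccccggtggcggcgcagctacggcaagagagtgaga

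The CLEAR core stood in 11 of the 57 matched promoters (19.3%), against 2.4% of all 35116 promoters of the same length, and the plain E-box in 13 (22.8%), against 7.26%. The 35116 were not limited to genes measured here. Among measured rows with a promoter, 360 held the core and 6654 did not, a larger share than 2.4%. The composite element TGATGNAA, which ATF4 binds with a partner, stood in 1 of 57 (1.75%, in CTSG), against 3.62%. MCOLN1 held 3 matches to the core, of which 2 overlap in one palindrome, CLCN7 and CTSD 1 each, LAMP1 6 and ATG3 2. All 11 genes with the core were measured in the input. Their log2 ratios ran from -1.71 (Clcn7) to 0.24 (Atg3) with a median of -0.14; 8 were below 0 and 3 above, and 4 were at least 1.5-fold lower, namely Clcn7, Mcoln1, Ctsd and Atp6v0d1. The 30 measured members with a promoter but no match had a median of 0.22, with 3 past the 1.5-fold limit on the lower side and 6 on the higher. LAMP1, with the most matches, belonged to a row at 0.05. Among measured rows of all kinds with a promoter in the table, the 360 with the core had a median of -0.05 and the 6654 without it -0.01. Of these, 16.4% and 12.9% were at least 1.5-fold lower, and 4.72% and 8.54% at least 1.5-fold higher. Whether the members with the core differ from other rows with it was not tested. A match describes the letters of the window and shows no binding.

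**Figure D2:**
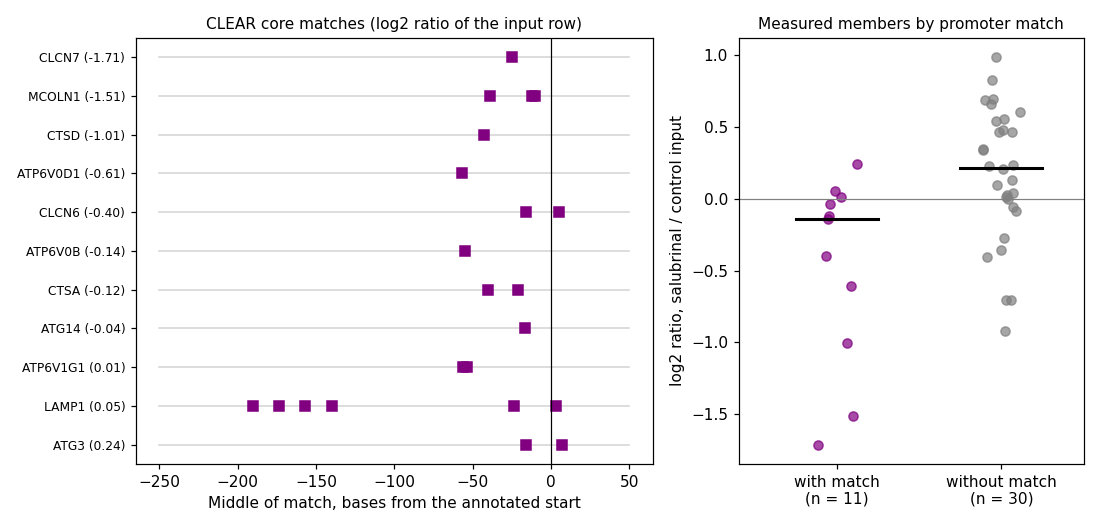
Left, positions of CLEAR core matches (squares, either strand) in bases from the annotated start for the 11 measured members that hold one, with the log2 ratio of the input row in brackets; right, log2 ratios of measured members with (n = 11) and without (n = 30) a match, with medians as bars. The medians are -0.14 and 0.22.

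Of the factors that read the element, Tfe3 had 169 and 108 counts, a log2 ratio of -0.06 (-0.42 to 0.30), and Tfeb had too few counts to give one. The row Mitf stood at -1.01 (-1.09 to -0.94), from 2598 and 3219 counts. The members' promoters also differed in base composition: the median GC content was 68.0% for measured members below 0 and 64.8% for those above (41 promoters, 80.4% of the measured members). The 7014 measured rows of all kinds with a promoter in the table differed the same way, with medians of 67% below 0 and 65% above. Spearman's correlation of promoter GC content with the log2 ratio was -0.331 for the members and -0.120 for these 7014 rows. The 7014 are 66.1% of all measured rows, so the comparison does not cover the rest. The part of base composition in the ratios was not tested.

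Rows of autophagosome formation were mostly higher with salubrinal. Of 23 measured autophagy members 18 were above 0, with a median of 0.24, 12 had an interval above 0 and 3 had one below. Among all measured rows the shares were 52.0%, 25.1% and 23.0%. In the initiation complex Atg13 had 29.1 CPM with salubrinal and 18.4 without (0.66, 0.40 to 0.94), and its partner Atg101 had 501 and 209 counts (0.55, 0.32 to 0.80). The kinase row Ulk2 stood at 0.09 (-0.27 to 0.47), and Ulk1 had 14 and 9 counts. Becn1, the scaffold of the lipid kinase complex that marks the site of the new membrane, had 1667 counts (117 CPM) in the salubrinal library and 631 (72.5 CPM) in the control, a log2 ratio of 0.70 (0.56 to 0.83). Atg14, which directs that complex to autophagy, was at -0.04 (-0.50 to 0.43).

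All 6 measured conjugation rows were above 0, and 5 had intervals above 0, against 52.0% and 25.1% of all measured rows. Atg7, the activating enzyme of both conjugation steps, had 285 and 108 counts, a log2 ratio of 0.69 (0.37 to 1.03). Atg10, the enzyme that joins ATG12 to ATG5, had 48 and 16 counts and a log2 ratio of 0.82 (0.04 to 1.80). Its substrates Atg5 and Atg12 stood at 0.60 (0.28 to 0.95) and 0.48 (0.09 to 0.89). Atg3, which passes ATG8 proteins to lipid, was at 0.24 (0.05 to 0.44), and Atg16l1, which places the complex on the membrane, at 0.13 (-0.07 to 0.33).

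The 3 measured ATG8 family rows were also above 0. Gabarapl2 had 54 and 16 counts, a log2 ratio of 0.98 (0.22 to 1.95), Gabarapl1 stood at 0.46 (0.01 to 0.95) and Gabarap at 0.34 (0.19 to 0.50). Sqstm1, whose product p62 carries ubiquitin-tagged cargo to ATG8 proteins, had the most counts of any member, 9761 and 4334, and a log2 ratio of 0.47 (0.41 to 0.52). Near-identical copies of such genes can share reads, so the split between family members is uncertain.

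The rows for membrane supply and for ATG8 processing did not follow. Atg9a, a lipid scramblase on the vesicles that seed the membrane, had 448 counts in each library and so a log2 ratio of -0.70 (-0.90 to -0.51) after scaling, which turned to 0.24 under total-count scaling. Atg2a, a lipid transfer protein, was at -0.92 (-1.47 to -0.43), while its paralog Atg2b was at 0.04 (-0.20 to 0.28). Wipi1 and Wipi2, which read the lipid PI3P, stood at 0.01 and -0.08. Atg4d, one of the proteases that trim ATG8 proteins, was 2.00-fold lower (log2 interval -1.46 to -0.59), from 81 and 101 counts, while Atg4c and Atg4b were at 0.24 and 0.02, with intervals that held 0.

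The literature names 12 autophagy genes as induced through ATF4 or its partner CHOP, and this list was set beside the members. It was chosen with earlier results of these data known. Of the 11 measured, all were above 0, 10 had an interval above 0 and 6 were at least 1.5-fold higher. The shares over all measured rows were 52.0%, 25.1% and 11.0%. The median of the list was 0.60. Nbr1, a cargo receptor and the only gene of the list outside the members, stood at 0.61 (0.47 to 0.76), from 1439 and 577 counts, and the lowest was Atg16l1. Atf4 itself stood at 1.82 and Ddit3, the CHOP gene, at 2.14.

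Further autophagy genes were less uniform. Among 18 other core genes 8 were above 0 and 10 below, with a median of -0.07. Rb1cc1, the scaffold of the ULK complex, was highest at 0.60 (0.41 to 0.80), followed by Sh3glb1 at 0.57, and Nrbf2 and Epg5 were lowest at -0.56 (-1.42 to 0.23) and -0.46. Among 16 cargo receptors 11 were above 0, against 52.0% of all measured rows. Retreg1, a receptor for the endoplasmic reticulum, was 2.17-fold higher at 1.12 (0.56 to 1.79), from 109 and 30 counts, and Ncoa4, the ferritin receptor, stood at 0.68, while Tex264, also a receptor for that organelle, was at -0.66 (-0.95 to -0.39) and the mitochondrial receptor Fkbp8 at -0.60. The plot of gene groups sets these lists beside the members.

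**Figure D3:**
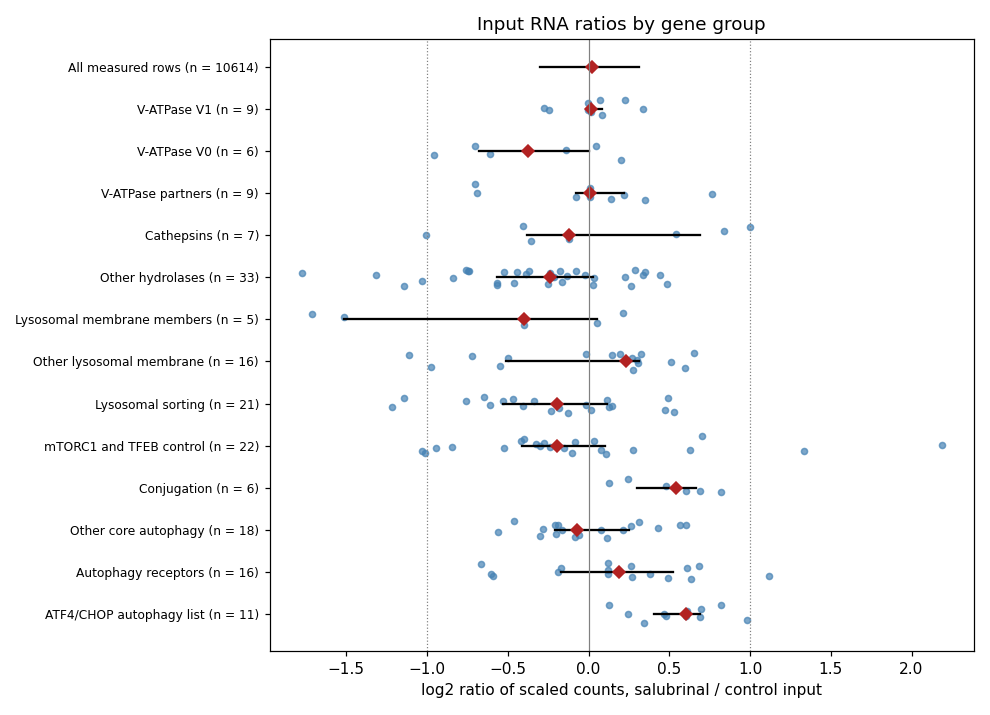
Log2 ratio of salubrinal over control input RNA (x axis) by gene group; each point is a measured gene, diamonds are medians and black bars the interquartile range, with all 10614 measured rows on top. The median is 0.54 for conjugation and 0.60 for the ATF4/CHOP list, which share genes, and -0.24 for other hydrolases.

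ATG10 was the member with the most counts in the gradient files, 3360 over 24 files, and ranked 11th among rows outside ribosomal RNA there, although its input row had 64 counts in all. Outside ribosomal RNA rows the 4 fraction files of each replicate agreed within sampling noise (chi-square per degree of freedom of 0.936 to 1.04, p from 0.0895 to 0.811), so they were summed and counted as 1 library. Between replicates of a fraction the value was 1.57 to 1.74 for control and 7.51 to 8.15 for salubrinal. By the same measure, control 40S file 1 went with control library 2 and file 2 with library 1, and each was summed there. Gene-row counts were 361480 to 693970 per file, of which 873 to 23714 lay outside ribosomal RNA.

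In the 3 salubrinal libraries the ATG10 row held 247, 30 and 1717 counts, which is 2.43%, 0.796% and 2.33% of counts outside ribosomal RNA. In the 3 control libraries it held 555, 132 and 679 counts, or 0.642%, 0.583% and 0.724%. The groups did not overlap, but salubrinal replicate 2, which has the fewest counts outside ribosomal RNA (3768), lay close to the controls, and its interval of 0.538% to 1.14% (exact binomial, counting error only) takes in all 3 control values. The mean share was 1.85% ± 0.917 with salubrinal and 0.65% ± 0.071 without (SD, n = 3; two-sided exact permutation p = 0.1, the smallest that 3 against 3 can give).

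By edgeR's quasi-likelihood test on the summed libraries ATG10 rose by 1.77 ± 0.54 (log2 fold change ± SE; adjusted p = 0.0299), from 83.6 ± 6.11 to 282 ± 144 CPM (SD, n = 3). Of 913 tested rows 52 were called (5.70%), 33 higher (3.61%) and 19 lower. That number of calls rested on single libraries: it was 8 without control replicate 1 or 3, 15 without salubrinal replicate 3 and 117 without salubrinal replicate 2. The call was lost without salubrinal replicate 1 (1.40, adjusted p = 0.354) or 3 (1.59, 0.327) and without control replicate 1, 2 or 3 (1.69, 1.71 and 1.81; 0.254, 0.219 and 0.379), while without salubrinal replicate 2 it was 2.10 (adjusted p = 1.26e-14). TMM scaling factors ran from 0.0908 in salubrinal replicate 2 to 5.19 in control replicate 3, and with library sizes alone the value was 0.65 (adjusted p = 0.862), with the median of all tested rows at -1.30.

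Fraction by fraction, as the study was designed, the ATG10 row passed the edgeR test in 60S and missed it in the others, with similar values. In 60S it was 1.62 ± 0.49 (adjusted p = 0.0172; 9.83% of 234 rows were called, 6.84% higher), and the 3 salubrinal files, at 2.56%, 1.24% and 2.23% of counts outside ribosomal RNA, were above the control files at 0.74%, 0.556% and 0.818%. In 40S it was 1.69 ± 0.60 (adjusted p = 0.0524; 6.22% of 225 rows were called higher), with groups that did not overlap in that share. In 80S it was 1.51 ± 0.61 (adjusted p = 0.0783; 12.7% called, 7.51% higher) and in polysome 1.63 ± 0.62 (adjusted p = 0.0919; 3.73% called, 2.49% higher), and in both the share in salubrinal replicate 2, 0.604% in 80S and 0.43% in polysome, fell within or below the control range. In 60S the 23 edgeR calls became 0 without salubrinal replicate 1 or any 1 control replicate (30 to 50 rows had an unadjusted p under 0.05 in those fits, and DESeq2 on all libraries gave 0 calls and 45 such rows), 5 without salubrinal replicate 3 and 39 without salubrinal replicate 2. These fraction values rest on the same counts within sampling noise and are not independent of each other, and a difference between fractions was not tested.

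**Figure D4:**
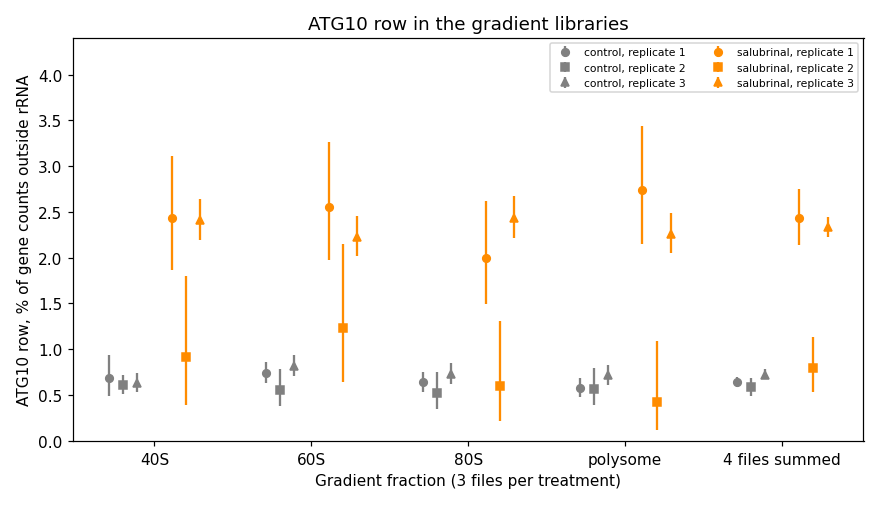
Counts on the ATG10 row as a percentage of gene-row counts outside ribosomal RNA (y axis) in each gradient file and in the 4 files of a library summed (x axis); points are single libraries with exact binomial 95% intervals, replicates 1 to 3 as titled for the fractions. Salubrinal replicates 1 and 3 lie well above all controls, and replicate 2 lies near them.

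The identity of these counts was not settled by the files. In the RefSeq gene table (GRCh38) no protein-coding gene overlaps ATG10, but the pseudogenes PPIAP11 and RN7SL378P lie within it. The next protein-coding gene downstream is RPS23, a ribosomal protein gene. The counts were made with build hg19, and this table cannot show whether rows overlapped in the annotation used for counting. The RPS23 row held 2 counts over the 24 files, while the input row Rps23 had 2448 counts with salubrinal and 974 without, a log2 ratio of 0.62 (0.52 to 0.73). How much of the ATG10 signal comes from its own mRNA was not tested, and the strand setting of the counting was not given in the sources used here.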

How the data were processed

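RNA was measured in 2 input libraries and 24 gradient files, as gene-row counts that the authors deposited without normalization. The submitters' processing notes name STAR, HTSeq (0.5.3p3), DESeq, FastQC (0.11.5), SAMtools (0.1.19.24) and build hg19; per the labels' protocols the kit was a stranded one for total RNA. Rows that name no gene were left out of library sizes; gene rows held 7.06% and 5.94% of input counts. Members and lists were chosen with earlier results of these data known.

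Input ratios are log2 ratios after TMM scaling, prior count 2, over rows with at least 50 counts. Gradient comparisons used edgeR 4.0.16 in R 4.3.3 (filterByExpr, TMM, robust quasi-likelihood fit, Benjamini-Hochberg threshold 0.05 over all tested rows), 3 libraries per group; p-values measure the spread between these libraries, which may be technical. Standard errors are the log2 fold change over the normal deviate of its p. Named were members 2-fold apart, the extremes of each role and list, and the ATF4/CHOP list. Sequences are RefSeq's. Alternatives were other scalings, filters, prior counts, DESeq2 1.42.0, a replicate block, a joint fit and leaving out each replicate.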

Additional observations from a re-analysis of the deposited data

Results flagged for a closer look

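ATP6V1C2, named for a tissue-restricted C subunit of the V1 sector, held 1634 counts over the 24 gradient files, while the input row Atp6v1c2 had 0 in both libraries. It was singled out because it is the only member row besides ATG10 with at least 100 counts in files that the comparison of members does not use. In the RefSeq gene table it overlaps PDIA6, a protein disulphide isomerase gene, whose own row held 0 counts over those files and whose input row Pdia6 had 3193 and 1618. As a share of counts outside ribosomal RNA it was 0.333% ± 0.118 with salubrinal and 0.58% ± 0.0968 without (SD, n = 3, 4 files summed; two-sided exact permutation p = 0.1, the smallest possible). By edgeR on the summed libraries its log2 fold change was -0.51 ± 0.44 (adjusted p = 0.603). Which transcript gave the counts was not tested.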

How the results depend on the processing

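Scaling by total gene-row counts moved the median of all input rows by 0.93 and was the one scaling that changed the input results: the members' median became 0.99, with 24 members 2-fold higher or more and 0 so far lower, 39 past 1.5-fold on the higher side and 2 on the lower, and 45 above 0; among members past the 1.5-fold limit, Atg9a (0.24), Atp6v0d1 (0.33) and Atp6v0a1 (0.23) changed sign; all 51 members kept their side of the all-row median. A prior count of 0.5 and a minimum of 10 counts each gave 2 members at least 2-fold higher; a minimum of 200 counts gave 2 at least 2-fold lower and 5 past 1.5-fold on either side, with fewer rows measured. ATG10 stayed positive in every alternative run. In the summed libraries it passed in 8 of 16. It did not pass without a filter (1.52, 10224 rows tested), with library sizes alone (0.65) or with the replicate block (1.63, adjusted p = 0.109). The block moved the calls from 52 to 24. Same-numbered salubrinal and control libraries correlated at -0.02, 0.17 and 0.32 in their deviations from the group mean. Other pairs ran from -0.295 to 0.119, so whether the numbers mark pairs was not settled. ATG10 lost 60S with library sizes alone (0.44), no filter (1.14), DESeq2 (1.29) and the joint fit (1.43). It passed polysome with the stricter filter (1.69), without ribosomal RNA rows (1.75) and without mitochondrial and small RNA rows (1.71), 80S with the last 2 of these (1.67, 1.57), and 40S with all of them (1.75, 1.80, 1.73) and with RLE factors (1.61). Leaving out 1 replicate gave 1.40 to 2.10 summed, 1.20 to 2.05 in polysome, 1.13 to 1.90 in 80S, 1.26 to 1.82 in 60S and 1.40 to 2.01 in 40S, and passed only without salubrinal replicate 2. Leaving out rRNA, mitochondrial and small RNA rows together, added after seeing the data, gave 1.88. Where no cause is named, the cause was not tested.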

Other observations

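Genes that control the lysosome from outside were mixed in the input. Of 22 measured genes of the mTORC1 and TFEB axis 8 were above 0 and 14 below, with a median log2 ratio of -0.20. The interval lay above 0 for 4 and below 0 for 9. Over all measured rows, 52.0% were above 0, and 25.1% and 23.0% had an interval above and below 0. Sesn2, a stress-induced inhibitor of mTORC1, was highest at 2.19 (1.67 to 2.88), from 209 and 27 counts, and the scaffold gene Lamtor3 followed at 1.34 (0.67 to 2.21). The scaffold genes Lamtor1, Lamtor2 and Lamtor4 went the other way at -0.40, -0.42 and -0.85, named after their values were seen. Castor2, an arginine-sensor relative, was lowest at -1.03 (-1.84 to -0.36), from 29 and 38 counts, just below Mitf.

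Of 21 genes that sort enzymes to the lysosome 14 were below 0, with a median of -0.19 and 10 intervals below 0. Of all measured rows, 52.0% were above 0 and 23.0% had an interval below 0. Vps18, part of the tethering complexes that fuse vesicles with lysosomes, was lowest at -1.22 (-1.44 to -1.01), and Nagpa, which uncovers the mannose 6-phosphate tag, stood at -1.14. Ap1s1 and Vps39 were highest at 0.53 and 0.49. Of the member names found in the gradient files, 36 of 70 rows had no count over all 24 files and 32 had 1 to 99.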
